A study of Mus musculus with 6 samples.

Results

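The genes described here carry mouse symbols made of Zfp and digits alone, the name given to many zinc finger protein genes. Members were the genes with such a symbol and a mean of at least 100 normalised reads over the 6 libraries, leaving out Zfp36. Of 369 such symbols among the 40202 genes listed, 259 met this level and all 259 were tested. The leaving out of Zfp36, which encodes the mRNA decay factor tristetraprolin, removed no values, because Zfp36 is listed at 0 in all 6 libraries. In all, 19 of the 369 symbols are listed at 0 throughout. Such a 0 may be a failed count, so expressed genes may be missing from the members. At the edge of the rule, Zfp619, Zfp647 and Zfp418 were just inside with means of 101.9, 102.3 and 107.5, and Zfp345, Zfp456 and Zfp784 just outside with 96.8, 96.3 and 95.8. Members were thus chosen by their symbol and their mean normalised reads over all 6 libraries, and that level is given only as a description.

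The libraries are total RNA of BV2 cells, an immortalised mouse microglial line with a C57BL/6 strain background in the labels. A group of 3 control libraries was untreated, and a group of 3 was exposed to human full-length apolipoprotein E4 (FL-ApoE4) for 5 h at 25 µg/ml. Whether the controls received the vehicle, and whether replicates were separate cultures, is not said in the labels, and each p-value therefore measures no more than the spread among these libraries, which may be technical. A cell line is a limited model of microglia in tissue.

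Most zinc finger proteins of this kind bind DNA through arrays of C2H2 fingers, in which pairs of cysteines and histidines hold a zinc ion. Many also carry a KRAB box, which recruits the corepressor TRIM28 and through it the histone methyltransferase SETDB1, and much of the best studied work of KRAB proteins is the silencing of retroelements. The family grew by tandem duplication, so its genes often stand side by side and share sequence. In microglia and macrophages few members have a described role.

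In the longest complete coding transcript of each gene (GENCODE M21), 249 of the 255 members with such a transcript held at least 1 match to the C2H2 spacing, with a median of 11 matches and up to 37 in Zfp142. The 6 without a match were Zfp330, Zfp503, Zfp703, Zfp839, Zfp935 and Zfp993. A KRAB box pattern, sought in every complete coding transcript, was found in 144 members and not in 111, and divergent boxes can escape that pattern. Several members act on RNA, ribosomes or chromatin complexes and are not DNA-binding transcription factors in the usual sense, so the symbol marks a name and a fold more than a shared function.

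Libraries held 45700128 to 54965393 reads assigned to genes. Noise between libraries was larger at low levels. On the log2 scale, members with a mean of 100 to 200 had a median residual SD of 0.195. Those at 1600 and over had 0.078. Of 15 microglia and macrophage markers, 13 had a mean of at least 10, while P2ry12 and Sall1 are listed at 0. Their summed level was 217041 to 219237 normalised reads in controls and 238112 to 245829 with FL-ApoE4, and 0 of 5 fibroblast markers reached a mean of 10. The summed levels of astrocyte markers (62.2 to 97.7 in controls, 71.4 to 78.3 with FL-ApoE4), neuronal markers (82.5 to 87.6 and 61.2 to 80.3), oligodendrocyte markers (1924 to 1948 and 1944 to 2152) and endothelial markers (3002 to 4765 and 4017 to 4534) were low beside these. The part of these levels in the results below was not tested. In bulk RNA, fewer cells of a type and less RNA per cell cannot be told apart.

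The members were modestly expressed. Their median level was 624 normalised reads, with quartiles of 328 and 1389, against 2262 for the 10567 other genes with a mean of at least 100. Per kilobase of transcript the medians were 199.6 and 773 normalised reads. Together the members took 0.619% to 0.657% of normalised reads in controls and 0.605% to 0.649% with FL-ApoE4, ranges that overlap. Those without a KRAB match were at a median of 373 normalised reads per kilobase and those with a match at 148. Zfp207, a spindle and kinetochore protein that also binds RNA, was the highest member per kilobase, at 7783.

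The data show no member that passed the test after exposure to FL-ApoE4, and most changes were small, as they were in other genes. By limma, 0 of 259 members had an adjusted p under 0.05, as did 0 of all 14079 genes tested (0%), and 0 were called by the edgeR quasi-likelihood test (0%). At an unadjusted p under 0.05 there were 31 members (12%), 16 higher and 15 lower, against a background of 13.1% of all genes tested and 13.8% of those with a mean of at least 100. By direction the backgrounds were 6.81% and 6.7% higher, and 6.33% and 7.06% lower. Control and FL-ApoE4 libraries did not overlap in 59 members (22.8%), 29 higher and 30 lower, against 21.9% and 23.2% in the same backgrounds. These shares are near the background, so neither count sets the members apart. DESeq2 called 1 member of 259 (0.386%), against 2.77% of all genes and 3.39% at a mean of at least 100, and without control replicate 1 limma called 2 (0.772%), against 4.62% and 5.62%.

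The median log2 fold change of the members was -0.02, with 113 above 0 and 146 below, where 50.3% of all genes tested and 48.9% of those with a mean of at least 100 were above 0. The median over other genes with a mean of at least 100 was -0.003, and weighted to the members' levels it was 0.02. In 207 members the log2 fold change was under 0.2 in size. A change past 0.2 was seen in 20.1% of members and in 17.3% of other genes with a mean of at least 100. Weighted to the members' levels, the share of other genes was 24.2%. For 222 members the unadjusted 95% interval of the change lay within 0.5 of 0 on the log2 scale, and for 256 it lay within 1. The median half-width of these intervals was 0.21. These intervals rest on the spread among these libraries, which may be technical. They therefore describe these libraries, and they neither bound the response in separate cultures nor show that it was absent.

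**Figure D1:**
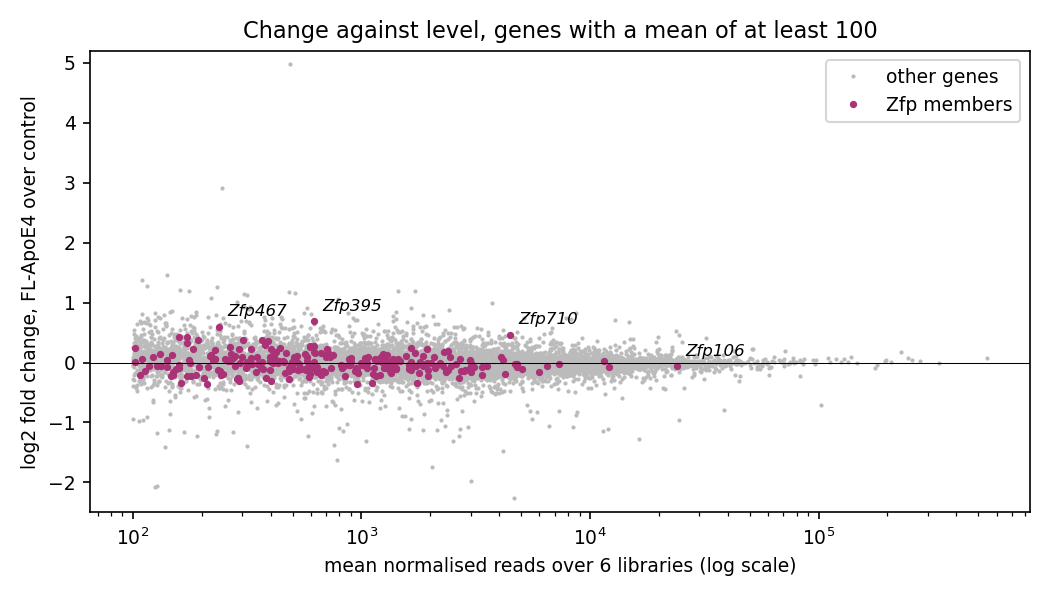
Log2 fold change of FL-ApoE4 over control (vertical axis) against mean normalised reads over 6 libraries (horizontal log axis) for members (purple) and the 10567 other genes with a mean of at least 100 (grey). Members lie between -0.36 and 0.69, whereas other genes reach -2.25 and 4.98.

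The question posed for the family was whether its log2 ratios spread more or less than those of genes at the same level. In 5 bins of the mean, the interquartile range of the members was 0.25, 0.22, 0.22, 0.13 and 0.13 from the lowest bin to the highest. The ranges for other genes in the same bins were 0.32, 0.26, 0.20, 0.18 and 0.12. A log2 ratio here is the difference of the means of log2 values. The members were narrower in 3 bins and wider in 2. Weighted to the members' bins, the ranges were 0.18 and 0.20, a ratio of 0.912, so in this fit the central part was much alike. Without control replicate 1 they were 0.174 and 0.211, and the members' range was the narrower with each library left out in turn. With trends in transcript length and GC content removed, both were 0.199. Whether the ranges differ was not tested. Between-library noise had a median residual SD of 0.106 for members and 0.120 for other genes on the same weighting.

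The tails differed more than the centre. A change past 0.5 on the log2 scale was seen in 2 members (0.772%), against 4.53% of other genes weighted to the same bins and 4.69% of other protein-coding genes. Past 1 there were 0 members, against 0.757% of other genes. With the log2 ratio of the 2 group means instead, which gives a single high library more weight, 3 members (1.16%) were past 0.5, against 4.50% of other genes, and 1 (0.386%) past 1, against 0.771%. The member added on that scale was Zfp811, at -1.03, and edgeR and DESeq2 gave the same counts of 3 and 1. The SD of log2 ratios, which weighs the tails, was 0.156 for members and 0.238 for other genes, a ratio of 0.655, and 0.162 and 0.255 on the scale of group means. The count past 0.5 was 1 (0.386% against 4.42%) without control replicate 1, 6 (2.32% against 5.45%) without control replicate 2 and 5 (1.93% against 6.12%) without control replicate 3. Members were below other genes in this share in each of the 6 fits that left out a library. These are descriptions of the 259 genes, which share libraries and are not replicates.

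**Figure D2:**
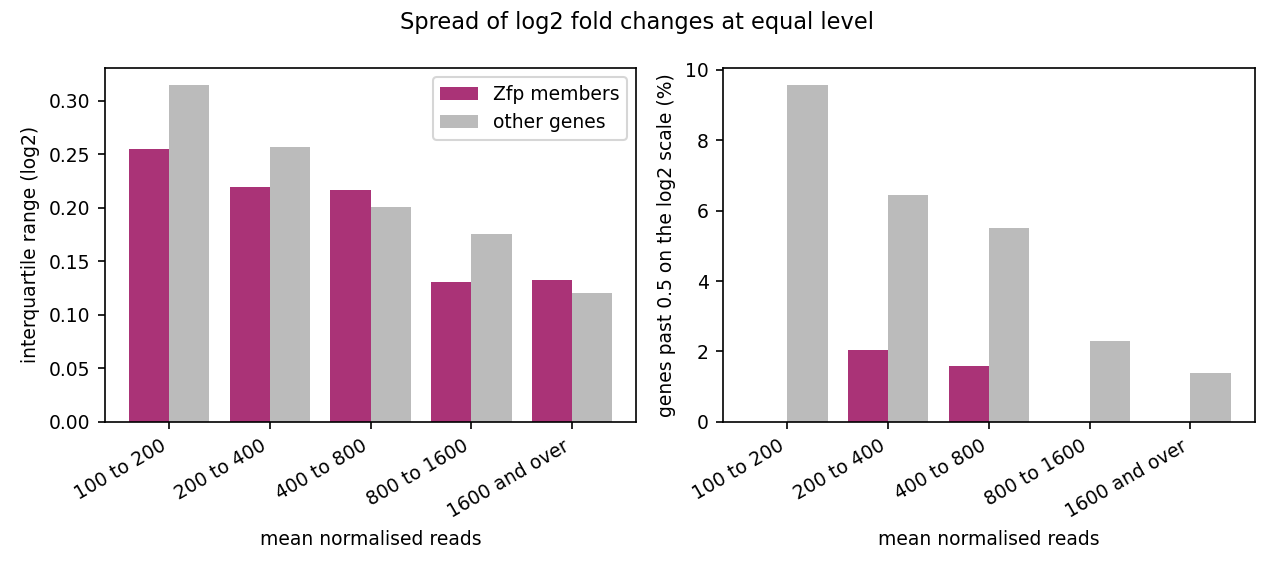
Interquartile range of log2 fold changes (left) and percent of genes past 0.5 in size (right) in 5 bins of mean normalised reads, for members (purple) and other genes (grey). In the left panel members are narrower in 3 bins and wider in 2, and the right panel shows members at 0 in 3 of 5 bins.

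Zfp710, which encodes a protein with 11 C2H2 matches and no KRAB match, was the member nearest to the threshold. It was at 3600, 3826 and 3812 normalised reads in control replicates 1 to 3 and at 5001, 5577 and 4920 in FL-ApoE4 replicates 1 to 3. Every FL-ApoE4 library was above every control, as in 11.1% of all genes tested. The log2 fold change was 0.46 ± 0.06 (SE), and the adjusted p over all genes was 0.0888 by limma and 0.08 by edgeR. Without control replicate 1 its change was 0.43 (limma adjusted p = 0.00749), and the adjusted p was 0.199 to 0.443 in the 5 limma fits without a different library. DESeq2 gave an adjusted p of 3.74e-06. In the authors' deposited table Zfp710 had a log2 fold change of 0.46 and an adjusted p of 3.96e-06, and it was the only member of the 259 called there (0.386%), against 2.61% of all genes tested here and 3.13% of those with a mean of at least 100. Its transcript shared 0% of its 50-base stretches with transcripts of other genes.

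The other 7 members of lowest p among those higher with FL-ApoE4 were Zfp90, Zfp839, Zfp846, Zfp316, Zfp111, Zfp810 and Zfp493. Since a low p chose them, groups that do not overlap follow in part from the choice. Zfp90, a KRAB protein, was at 326, 336 and 360 normalised reads in controls, against 428, 425 and 455 with FL-ApoE4, a difference of 0.36 ± 0.08 on the log2 scale (SE; limma adjusted p = 0.173). Zfp839 was at 1712, 1806 and 1816 in controls, against 2090, 2095 and 2032 with FL-ApoE4, and its log2 fold change was 0.22 ± 0.05 (limma adjusted p = 0.189). In Zfp846 the controls were at 245, 263 and 286 and the FL-ApoE4 libraries at 332, 357 and 341, a log2 fold change of 0.38 ± 0.09. All 3 missed the threshold, and the groups did not overlap in any of them. The log2 fold changes of the remaining 4 ran from 0.24 in Zfp493 to 0.37 in Zfp810.

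On the lower side the 8 members of lowest p were Zfp598, Zfp746, Zfp747, Zfp800, Zfp110, Zfp697, Zfp59 and Zfp35, and none passed the threshold. Zfp598 is a ubiquitin ligase that marks ribosomes which have collided on an mRNA. It was at 4530, 4589 and 4366 normalised reads in controls, against 3828, 3909 and 4134 with FL-ApoE4, a difference of -0.18 ± 0.05 on the log2 scale (SE; limma adjusted p = 0.223). Zfp746, also called PARIS, is a parkin substrate that represses the gene of the coactivator PGC-1α. Its controls were at 1350, 1267 and 1257 and its FL-ApoE4 libraries at 1132, 1158 and 1075, a difference of -0.20 ± 0.06 on the log2 scale (limma adjusted p = 0.247). Zfp110, which encodes an interactor of the neurotrophin receptor p75, was at 1335, 1166 and 1240 in controls, against 1021, 1099 and 1078 with FL-ApoE4. The largest value of the 8 was -0.34 ± 0.11 in Zfp697, where control replicate 1 stood at 1426 and the other controls at 1147 each. Zfp59 and Zfp747 share 52.4% and 36.9% of their 50-base stretches with other genes, so their counts are uncertain.

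**Figure D3:**
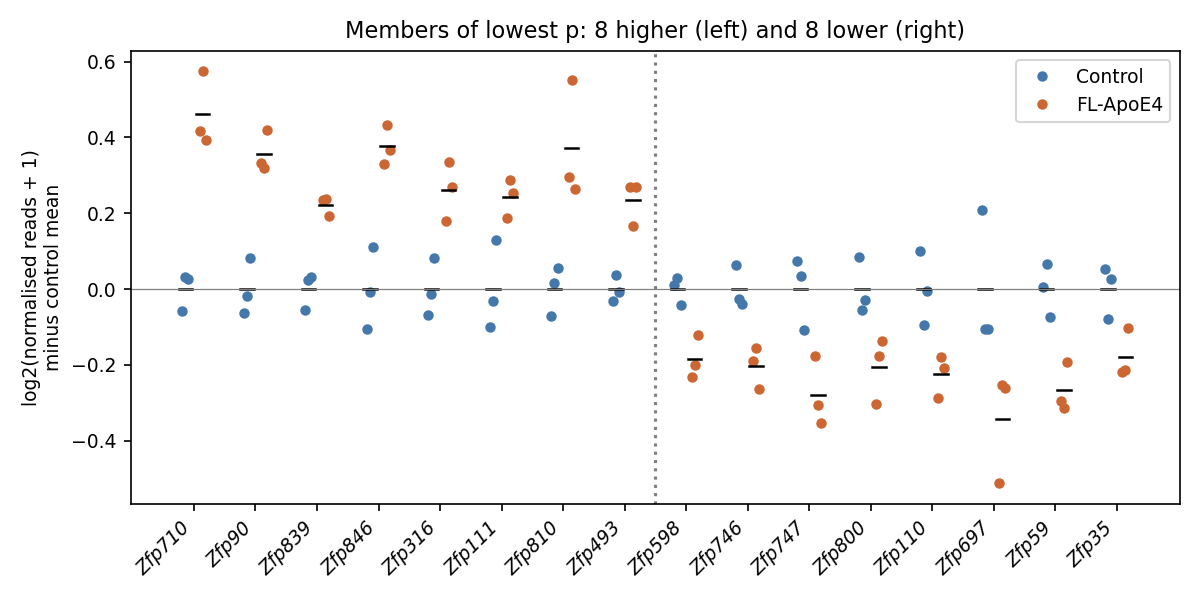
Log2(normalised reads + 1) minus the gene's control mean for the 16 members of lowest p, 8 higher and 8 lower, with a point for each of 3 control (blue) and 3 FL-ApoE4 (orange) libraries and a bar at each group mean. The groups do not overlap in any of the 16, and the group means differ by at most 0.46.

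Promoter sequence is shown for the members of lowest p in each direction that have an entry in the RefSeq table (GRCm38.p6), because these genes carry the changes nearest to the threshold. Each line gives the 150 bases before the start of transcription, 5′ to 3′ on the gene's strand, at chr7:80024664-80024813 (+) for Zfp710, chr12:110850129-110850278 (+) for Zfp839, chr17:24669537-24669686 (+) for Zfp598 and chr6:48086594-48086743 (-) for Zfp746. Capitals mark the GC box GGGCGG and the CCAAT box on either strand.
Zfp710: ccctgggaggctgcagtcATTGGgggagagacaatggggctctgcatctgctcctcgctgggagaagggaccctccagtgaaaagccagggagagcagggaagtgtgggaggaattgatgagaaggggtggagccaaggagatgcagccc
Zfp839: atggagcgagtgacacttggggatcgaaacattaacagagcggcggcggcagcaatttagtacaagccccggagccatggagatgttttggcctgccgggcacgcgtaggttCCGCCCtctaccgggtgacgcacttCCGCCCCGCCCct
Zfp598: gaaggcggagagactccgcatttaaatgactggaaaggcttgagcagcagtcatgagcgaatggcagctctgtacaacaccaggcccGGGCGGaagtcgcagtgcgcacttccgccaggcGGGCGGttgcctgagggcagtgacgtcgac
Zfp746: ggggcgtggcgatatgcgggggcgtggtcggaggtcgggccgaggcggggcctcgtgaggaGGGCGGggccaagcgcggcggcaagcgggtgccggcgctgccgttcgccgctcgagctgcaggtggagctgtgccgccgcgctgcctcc

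The GC box was matched 3 times in Zfp839, where 2 of the matches overlap, 2 times in Zfp598, 1 time in Zfp746 and 0 times in Zfp710, whose window held 1 CCAAT box. Among the 215 members with an entry, 43.7% held a GC box and 45.6% a CCAAT box in these 150 bases. The shares were 31.3% and 27.7% over all 27025 genes of the table and 58.5% and 32.3% over genes with a mean of at least 100. The ETS site CCGGAAG was in 14.9% of members, 6.33% of all genes and 14.4% of those with a mean of at least 100, and the AP-1 site TGANTCA in 1.86%, 4.96% and 3.52%. A gene counted once if any of its windows held the motif on either strand, and a match is a description of letters only.

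Members were then read by what they are known to do. Of 9 members with a role on RNA or ribosomes, 7 were below 0 and 2 above, with a median log2 fold change of -0.06. Above 0 were 43.6% of all members and 50.3% of all genes tested. None of the 9 passed the test, nor did any of the 14079 genes. Zfp106 and Zfp638 were above 0 without FL-ApoE4 replicate 1, and Zfp330 without control replicate 1. Zfp830, above 0 over all libraries, was below 0 without FL-ApoE4 replicate 1 or control replicate 2. Zfp106, an RNA-binding protein needed by motor neurons and the member with the most reads, was at 24586 ± 1931 normalised reads in controls, against 23598 ± 2994 with FL-ApoE4 (mean ± SD, n = 3 each). Zfp207 was at 12494 ± 440 and 11822 ± 291, and Zfp622, a maturation factor of the large ribosomal subunit, at 6325 ± 862 and 5613 ± 228. Zfp638, which helps to silence unintegrated retroviral DNA, was at 7378 ± 93.1 and 7299 ± 542. The group ranges overlapped in each of these 4, and only Zfp598 among the 9 had groups that did not overlap, where 21.9% of all genes tested did not. Control replicate 1 was the highest library for Zfp622, whose log2 fold change was -0.16 with it and -0.06 without it. Zfp346, which binds double-stranded RNA, was at -0.10 ± 0.07 on the log2 scale, and Zfp330, Zfp326 and Zfp830 lay between -0.05 and 0.04, of which Zfp330 shares 19.1% of its 50-base stretches with other genes. Zfp706, also among the 5 members with the most reads, was at 0.03 ± 0.05.

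Of 8 genes listed for retroelements and imprints, 6 were members, with a median log2 fold change of 0.01 and 0 of 6 past the test. With each library left out in turn that median ran from -0.05, without control replicate 1, to 0.02. Zfp57, which keeps imprints in embryonic cells, had too few reads to be a member, and Zfp600 is listed at 0 in all 6 libraries. Zfp445, the other imprint keeper, was at 4884 ± 127 normalised reads in controls, against 4659 ± 405 with FL-ApoE4. Zfp809 recruits TRIM28 to the primer binding site of murine leukaemia virus and was at 2286, 1901 and 1857 in controls, against 1870, 2170 and 1956 with FL-ApoE4, with overlapping groups. Zfp568, a repressor of a placental Igf2 transcript, was at -0.14 ± 0.08 on the log2 scale. Zfp932, Zfp708 and Zfp961 lay between 0.02 and 0.08, and Zfp932 and Zfp708 share 55.5% and 100% of their 50-base stretches with other genes.

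The 12 members that work with chromatin complexes had a median log2 fold change of -0.02, 5 above 0 and 7 below, and 0 passed the test. With each library left out in turn that median ran from -0.05 to 0.04, and it was above 0 only without FL-ApoE4 replicate 1. Zfp410 is known as an activator of Chd4, a remodeller gene, and was at 2041, 2039 and 2047 normalised reads in controls, against 1940, 1838 and 1858 with FL-ApoE4, groups that did not overlap, as in 21.9% of all genes tested. Its log2 fold change was -0.12 ± 0.05 (limma adjusted p = 0.385). Chd4 itself was at 30490 ± 1203 normalised reads in controls, against 26328 ± 1838 with FL-ApoE4, a difference of -0.21 ± 0.06 on the log2 scale (limma adjusted p = 0.233), again without overlap. Chd4 is named for its low p in the list of silencing genes below, and a link between Zfp410 and Chd4 was not tested. Zfp687 and Zfp592, partners of the reader ZMYND8, were at 0.07 ± 0.08 and 0.06 ± 0.08, and at 0.003 and 0.02 without control replicate 1. Zfp644 and Zfp462, which work with the methyltransferases G9a and GLP, were at -0.06 ± 0.08 and 0.04 ± 0.17. Zfp451, a SUMO ligase, was at -0.03 ± 0.05, and Zfp217, Zfp516, Zfp281, Zfp148 and Zfp335 ran from -0.09 to 0.10. The widest value was that of Zfp827, a NuRD partner at telomeres, at -0.35 ± 0.19.

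Of 4 genes listed for roles in immune cells, Zfp64 and Zfp318 were members, Zfp91 is listed at 0 in all 6 libraries, and Zfp683 was not analysed here. Zfp64, described as a positive factor of Toll-like receptor signalling in macrophages, was at 2016, 2281 and 2215 normalised reads in controls, against 2449, 2427 and 2447 with FL-ApoE4. Every FL-ApoE4 library was above every control, as in 11.1% of all genes tested, and control replicate 1 was the lowest library. The difference was 0.17 ± 0.06 on the log2 scale (limma adjusted p = 0.306). Zfp318, which in B cells allows IgD to be made, was at 1954, 2107 and 2245 in controls, against 1592, 1963 and 1838 with FL-ApoE4, and FL-ApoE4 replicate 2 overlapped the controls. Its log2 fold change was -0.23 ± 0.09 (limma adjusted p = 0.351).

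The silencing machinery that KRAB proteins call on was read the same way. Of 25 listed genes for TRIM28, SETDB1, HP1, HUSH, NuRD, ATRX, histone H3 lysine methylation and DNA methylation, 0 passed the test (limma), 13 were above 0 and 12 below, and the median log2 fold change was 0.001. At an unadjusted p under 0.05 (limma) there was 1 of the 25, Chd4, against 13.1% of all genes tested. Suv39h1, Smarcad1 and Uhrf1 were next, at -0.11 ± 0.05, -0.13 ± 0.07 and -0.16 ± 0.09. Without control replicate 1 Uhrf1, which guides maintenance DNA methylation, fell by 0.26 (limma adjusted p = 0.0424), and over its other alternatives the adjusted p ran from 0.237 to 0.726.

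Like-named families gave the following values, with 0 calls by limma in each, against backgrounds of 6.7% higher and 7.06% lower at an unadjusted p under 0.05 among genes with a mean of at least 100. The 35 genes of the Zbtb family, whose BTB domain pairs proteins, had a median log2 fold change of -0.06, with 1 higher and 6 lower at an unadjusted p under 0.05. Zbtb10 was the widest, from 1311 ± 253 to 906 ± 44.9 normalised reads, a difference of -0.52 ± 0.13 on the log2 scale (limma adjusted p = 0.19, and -0.36 with 0.0219 without control replicate 1, against 0.252 to 0.605 with each other library left out). Zbtb40, Zbtb11 and Zbtb18 were at -0.36 ± 0.08, -0.20 ± 0.05 and 0.21 ± 0.07. DESeq2 called 3 of the 35, Zbtb10, Zbtb40 and Zbtb11, with adjusted p-values of 0.0101, 0.0156 and 0.0498. By that test 3.39% of genes with a mean of at least 100 were called. The 17 genes of the Zscan and Zkscan family had a median of -0.06 with 0 higher and 1 lower, Zscan29 at -0.30 ± 0.09. The 17 CCCH-type Zc3h genes had a median of -0.09 with 0 higher and 4 lower, among them the RNase genes Zc3h12c and Zc3h12a at -0.83 ± 0.30 and -0.64 ± 0.26. Control replicate 1 was far above the other controls in these last 2, and without it they fell by 0.43 (limma adjusted p = 0.00961) and 0.29 (0.033). With each other library left out their adjusted p-values were 0.290 to 0.659 and 0.313 to 0.692. The difference between any of these families and the members was not tested.

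Within the members, genes with and without a KRAB match were set side by side, and their difference was not tested. The median log2 fold change was -0.01 in the 144 with a match (71 above 0 and 73 below) and -0.03 in the 111 without (40 and 71). At an unadjusted p under 0.05 there were 16 (11.1%) and 15 (13.5%). By finger number the medians were -0.004 with 0 to 3 fingers, -0.01 with 4 to 8, -0.05 with 9 to 12 and -0.01 with 13 or more. Across 255 members the Spearman correlation of the fold change with finger number was 0.002, given without a p because members share libraries. At least 1 directly neighbouring protein-coding gene bore a Zfp symbol for 133 members. Over 70 pairs of neighbouring members, 43 pairs (61.4%) had changes of the same sign, with a Spearman correlation of 0.197. Many genes belong to more than 1 pair, so the pairs are not independent, and no share was computed for members that are not neighbours. Neighbours often share sequence, so part of their reads may be common, which was not tested. Of 258 members with a transcript, 41 shared over 10% of their 50-base stretches with other genes, and their median change, -0.02, was that of the other 217.

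The libraries were not equally placed for this family. The members' median in FL-ApoE4 replicate 1 lay 0.09 below the other 2 libraries of its group on the log2 scale, with 180 of 259 members lower, against -0.001 for other genes. FL-ApoE4 replicates 2 and 3 lay 0.04 and 0.05 above the rest of their group, a reference that includes replicate 1. In FL-ApoE4 replicate 1 these deviations went with transcript length, at a Spearman correlation of -0.44 across 258 members and -0.62 across other genes. Median transcript length was 3347 bases in members and 2944 in other genes, and median GC content 45.5% and 50.3%. Without FL-ApoE4 replicate 1 the members' median change was 0.001, with 132 of 259 above 0. With each library's trend in length and GC content, fitted over tested genes, removed it was -0.01. The weighted interquartile range was then 0.199 in members and 0.199 in other genes. Trends within the members remained. The Spearman correlation of their fold change was -0.03 with length and 0.03 with GC content before this step, and 0.11 and -0.17 after it. The members' median of -0.02 is smaller in size than the spread between libraries, whose SD for this median was 0.039.

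**Figure D4:**
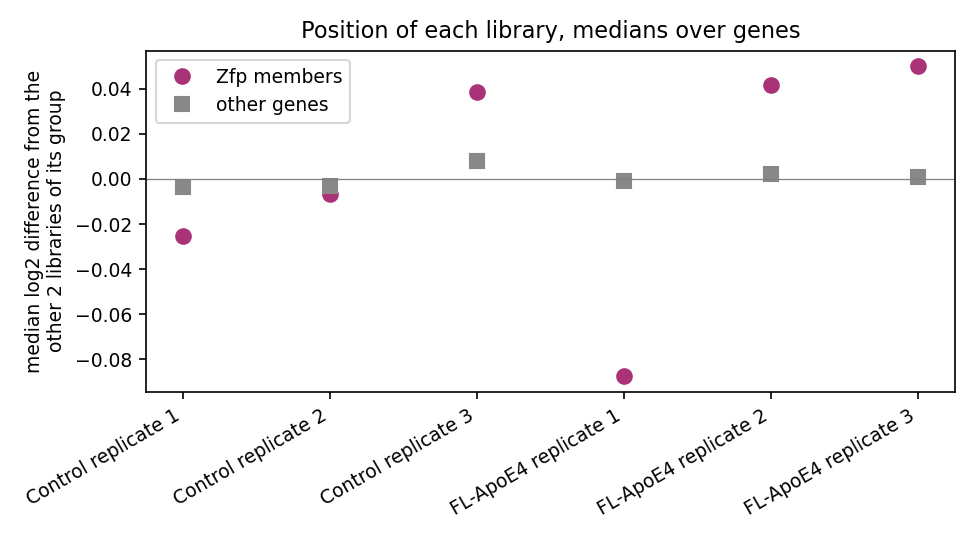
Median log2 difference of each library from the other 2 libraries of its group (vertical axis), over members (purple circles) and over other genes (grey squares). FL-ApoE4 replicate 1 is lowest for members, at -0.09, while other genes stay within 0.01 of 0.

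The members that varied most between libraries of a group, and the members with the largest changes, were chosen here after their values were seen. Zfp811, a KRAB protein with 14 finger matches, was at 671 normalised reads in control replicate 1, at 84.4 and 98.0 in the other controls, and at 133, 139 and 144 with FL-ApoE4. Its log2 fold change was -0.36 ± 0.71 (SE) over all 6 libraries and 0.60 without control replicate 1 (limma adjusted p = 0.0406), so that library set its sign. With each other library left out the adjusted p was 0.714 to 0.935. On the same 6 libraries edgeR gave -1.02, DESeq2 -1.04 and the authors' deposited table -1.04, none of them called. Zfp395 and Zfp467 were the 2 members past 0.5 on the scale of mean log2 values, and in each control replicate 1 was the lowest library. Zfp395 was at 267, 614 and 604 in controls, against 735, 810 and 697 with FL-ApoE4, a difference of 0.69 ± 0.30 on the log2 scale (limma adjusted p = 0.388) that was 0.29 without control replicate 1. Zfp467 was at 131, 203 and 247 in controls, against 277, 296 and 281 with FL-ApoE4, at 0.60 ± 0.21 and, without that library, 0.34.

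Zfp703, a corepressor, was highest in that library, at 1566 in control replicate 1, 843 and 864 in the other controls, and 815, 782 and 842 with FL-ApoE4. Zfp667 was lowest in control replicate 1, at 71.7 against 166 and 165 in the other controls. Zfp469 and Zfp704 were low in replicate 1 of each group, with Zfp704 at 628 and 592 there and between 897 and 1012 in the other 4 libraries. In control replicate 1, 11 members (4.25%) lay more than 0.5 on the log2 scale from the other controls, against 9.22% of other genes. In FL-ApoE4 replicate 3 there were 0 such members, against 0.606% of other genes. Both shares of other genes were taken without weighting to the members' levels, which are lower.

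**Figure D5:**
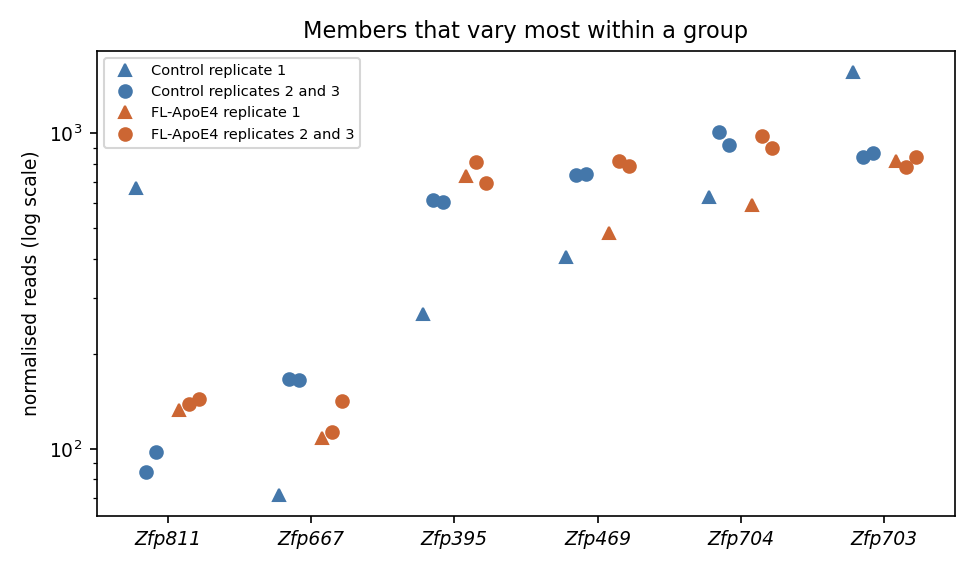
Normalised reads (log axis) in each library for the 6 members with the largest spread within groups, with triangles for replicate 1 and circles for replicates 2 and 3 of control (blue) and FL-ApoE4 (orange). The control triangle stands apart in Zfp811, Zfp667, Zfp395 and Zfp703, and the triangles of both groups are low in Zfp469 and Zfp704.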

How the data were processed

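The submitters' processing notes name FastQC (0.11.8), HISAT2 (2.2.1), HTSeq and the GRCm39 build, as well as DESeq2 (1.30.1). What each tool did, and whether strand was used in counting, is not given there. The deposited values are a normalised signal for each gene in each library, and 100% were whole multiples of a library's smallest value (tolerance 0.01), so reads were recovered by division. Genes listed at 0 in every library include B2m, which nearly all cells express, so such a 0 may be a failed count. A log2 fold change with its p-value, raw and adjusted, comes from the authors' deposited table and is used only where named.

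Testing used limma 3.58.1 in R 4.3.3 on log2(value + 1), with a trend of variance on level and two-sided p-values. It covered the 14079 genes with a mean of at least 10, with Benjamini-Hochberg adjustment over all of them and a threshold of 0.05. Fold changes are on that scale, which understates changes of low genes. edgeR 4.0.16 and DESeq2 1.42.0 on recovered reads were alternatives, as were other pseudocounts, filters, scalings, variance models and member levels, a block for replicate number, and leaving out each library. Removing trends in transcript length and GC content, and the log2 ratio of group means (1 added to each mean), were added after the data were seen. Each test was also run on simulated data with known changes. The simulation gave every gene the same noise setting and held no outlying library, so it does not measure power in these data.

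The members, gene lists and tests were chosen with earlier results of these data known. Named members are the 8 of lowest p each way, the 5 with most reads, those at the edge of the rule, those called by the authors or with a library left out, and members of role lists, with up to 4 genes of lowest p in other lists. Exceptions are named in the text. Finger and KRAB patterns, lengths and shared 50-base stretches came from GENCODE M21 (GRCm38), and neighbours among protein-coding genes from RefSeq (GRCm38.p6). Because these builds differ from the authors', they give no coordinates beyond those of the promoter table.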

Additional observations from a re-analysis of the deposited data

How the results depend on the processing

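No member was called by limma with any pseudocount, filter, scaling, variance model or member level tried, or with the replicate block (0 members and 0 genes), and edgeR called 0 members. DESeq2 called 1 member and 390 genes. Leaving out a library gave 0 to 2 members and 0 to 651 genes, the highest counts without control replicate 1, with 1 gene called without FL-ApoE4 replicate 2. Without a filter beyond a mean above 0, 1 gene was called. Deviations of same-numbered libraries from their group means correlated at 0.13, 0.07 and -0.03, and those of differently numbered libraries at -0.16 to 0.16. The labels do not say whether replicate numbers pair the samples, and correlations over so few libraries cannot decide it. The members' median stayed between -0.04 and 0.001 and their interquartile range between 0.17 and 0.21 with each library left out in turn, each within the spread between replicates. Of 62 named genes, 28 values in alternatives reversed sign, none of them called except Zfp811 without control replicate 1, whose values ran from -0.89 to 0.60 with a library left out. With quantile normalisation Zfp638 was at 0.0084, Zfp809 was at 0.0023, Zfp932 was at -0.0068, Zfp708 was at -0.0095, Zfp462 was at -0.0295 and Zfp335 was at 0.011. With the length and GC correction Zfp638 was at 0.043 and Zfp830 at -0.0023. With a library left out, the range ran for Zfp106 from -0.12 to 0.046, Zfp706 from -0.0065 to 0.054, Zfp638 from -0.0501 to 0.045, Zfp330 from -0.094 to 0.029, Zfp830 from -0.022 to 0.061, Zfp445 from -0.11 to 0.0029 and Zfp809 from -0.069 to 0.086. Likewise it ran for Zfp932 from -0.052 to 0.0898, Zfp961 from -0.05003 to 0.15, Zfp644 from -0.10 to 0.0196, Zfp462 from -0.057 to 0.18, Zfp217 from -0.011 to 0.17 and Zfp335 from -0.058 to 0.057. Of 46 named members, 28 had a change that moved by over 1.5 times or turned sign with some library left out, 23 of them without FL-ApoE4 replicate 1 and 19 without control replicate 1. The ratio of group means, added after the data were seen, turned the sign of no named gene.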
